A study of Mus musculus with 9 samples.

Results

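The genes described here are 9 Krüppel-like factor (KLF) genes, Klf2, Klf3, Klf4, Klf5, Klf6, Klf7, Klf9, Klf10 and Klf13, out of 19935 genes measured and out of 17 KLF genes on the array. They were chosen by name, with earlier results of these data known. Each is read by 1 probe set, the group of probes that gives an array's value for a gene. The family shares similar zinc finger sequences, and cross-hybridisation was not tested. Messenger RNA was measured on 9 Affymetrix Mouse Gene 1.0 ST arrays in NIH 3T3 cells, a mouse embryonic fibroblast line, 3 biological replicates per group. The groups stably carried the pLKO.1 vector (control), an shRNA against Net (gene Elk3) or an shRNA against Sap-1 (gene Elk4), 2 ternary complex factors, which bind DNA beside serum response factor at promoters that respond to serum. All cells, controls included, attached to fibronectin for 2 hours, were starved of serum overnight and then received bovine serum for 1 hour, at a concentration that the labels state as 10% for the samples and 20% for the series. No array was taken without serum, so a KLF gene's induction by serum was not measured. The labels do not say how many transduced lines or which shRNA sequences each group holds, so the p-values measure the spread between these cultures only. Fewer cells expressing a gene and less RNA per cell cannot be told apart in such bulk samples.

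Krüppel-like factors are transcription factors that bind GC-rich and CACCC sequences through 3 zinc fingers at the end of the protein. They fall into groups by the partners that the rest of the protein recruits. Klf3 belongs to the group that binds the corepressor CtBP, Klf2, Klf4, Klf5, Klf6 and Klf7 to a group known mostly as activators, and Klf9, Klf10 and Klf13 to the group that binds the corepressor Sin3A. Several of the genes are quickly and briefly induced in fibroblasts by growth factors, and several family members are known to slow the cell cycle while Klf5 is known to favour it.

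RefSeq promoter windows (GRCm38.p6, 250 bases before to 50 after the start) were at hand for 7 of the 9 genes, all but Klf5 and Klf10. The stretches of 250 bases before the start are shown for Klf2 and Klf9, which changed most, and for Klf4, which differed between both knockdowns, each 5′ to 3′ on the gene's strand. Capitals mark GGGCGG, the GC box, and CACCC, the motifs that KLF proteins themselves bind, on either strand, and a match to the MEF2 site, the motif of the MEF2 factors that are known to drive Klf2.
Klf2, chr8:72318812-72319061, plus strand: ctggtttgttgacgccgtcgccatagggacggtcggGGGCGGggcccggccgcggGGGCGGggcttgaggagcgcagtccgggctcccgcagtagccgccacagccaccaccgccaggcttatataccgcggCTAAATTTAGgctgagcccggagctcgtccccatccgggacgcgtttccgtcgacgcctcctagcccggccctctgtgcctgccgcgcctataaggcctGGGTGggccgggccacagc
Klf4, chr4:55532476-55532725, minus strand: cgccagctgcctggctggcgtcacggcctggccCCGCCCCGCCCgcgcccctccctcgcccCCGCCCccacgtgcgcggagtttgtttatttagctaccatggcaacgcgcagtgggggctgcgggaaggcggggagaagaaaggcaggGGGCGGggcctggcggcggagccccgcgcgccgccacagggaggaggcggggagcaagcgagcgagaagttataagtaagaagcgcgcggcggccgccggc
Klf9, chr19:23140976-23141225, plus strand: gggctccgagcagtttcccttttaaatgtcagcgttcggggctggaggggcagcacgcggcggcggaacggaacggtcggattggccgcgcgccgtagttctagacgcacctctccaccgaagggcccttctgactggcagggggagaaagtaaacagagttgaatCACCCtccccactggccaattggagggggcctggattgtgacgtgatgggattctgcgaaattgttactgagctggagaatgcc

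Of the 7 windows, 6 held GGGCGG (all but Klf9) and 5 held CACCC (all but Klf4 and Klf6), on either strand, against 35.7% and 57.5% of the 32851 windows in the table. None of the 7 held the CArG box bound by serum response factor (1.63% of all windows), CCGGAA, an ETS motif of the kind that ternary complex factors bind (14.9%), or TGACGTCA, the cAMP response element (1.79%), which says only that these letters are absent from these windows. A match to the MEF2 site was found in Klf2 alone, its first base 118 bases before the start, against 3.19% of all windows. The MEF2 site was searched for after the sequences had been seen. Matches shared a base in 3 of the 7 windows, where 2 GC boxes met in Klf4 and where a GC box met a CACCC motif in Klf3 and in Klf13.

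The log2 medians of the arrays ran from 7.47 to 7.54, and the arrays correlated at 0.9981 to 0.9992 within groups and at 0.9879 to 0.9947 between groups. Fibroblast markers were high, all 9 at or above the 95.2 percentile of genes by mean level over the 9 arrays. The macrophage, epithelial, endothelial and muscle marker lists had medians of 6.16 to 7.22 in control, though no detection calls were given. Elk3 fell by 0.42 in Net shRNA cells and Elk4 by 1.54 in Sap-1 shRNA cells (limma adjusted p = 1.1e-05 and 9.2e-10). Elk4 also fell by 0.44 in the Net shRNA cells (adjusted p = 2.3e-05), so values in those cells go with a lower level of both transcripts.

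Some markers moved with the shRNAs. Over all genes, 23.6% were called with the Net and 29.7% with the Sap-1 shRNA at a limma adjusted p under 0.05. Among the 3885 genes at least as bright as the dimmest of the 9 KLF genes, the shares were 43.7% and 51.6%. These are the nearer background for the fibroblast markers, which are bright. Of the 9 fibroblast markers 3 fell with the Net and 4 with the Sap-1 shRNA and none rose, Pdgfra by 0.26 and 1.74 (limma adjusted p = 0.007 and 4.2e-09), and their summed log2 level was 16.18 to 16.20 in control, 16.10 to 16.15 in Net shRNA and 15.99 to 16.03 in Sap-1 shRNA cells. With each array left out in turn the counts were 1 to 3 and 3 to 4, as the Net shRNA call of Fn1 was lost in 8 of 9 such fits, all but that without Sap-1 shRNA replicate 3, and that of Pdgfrb without control replicate 2 or 3 or Net shRNA replicate 1 or 3. Of the 5 endothelial markers Tek rose by 1.84 with the Net shRNA and fell by 0.30 with the Sap-1 shRNA, where Cdh5 rose by 0.84 (adjusted p = 2.7e-09, 0.0012 and 9.6e-06), and their summed level was 9.02 to 9.09, 9.65 to 9.72 and 9.14 to 9.24. Of 5 markers each, 1 macrophage, 2 epithelial and 1 muscle marker rose with the Net shRNA and none fell, while with the Sap-1 shRNA 1 epithelial and 2 muscle markers rose and 1 macrophage marker fell. The macrophage rise (Cd68) was lost without control replicate 3 (adjusted p = 0.053), and the epithelial rise with the Sap-1 shRNA (Krt14) without control replicate 3 or Sap-1 shRNA replicate 1 or 3 (adjusted p = 0.08, 0.052 and 0.063). The summed levels of these 3 lists lay between 9.16 and 10.13 on all arrays. The part of these changes in the KLF differences was not tested.

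In each knockdown those of the 9 members that passed the test were all lower than in control. A gene was called at a limma adjusted p under 0.05 over all genes. In Net shRNA cells 5 of 9 members fell (Klf3, Klf4, Klf7, Klf9 and Klf13) and none rose, where 23.6% of all genes were called, 13.4% higher and 10.2% lower. In Sap-1 shRNA cells 6 of 9 fell (Klf2, Klf3, Klf6, Klf7, Klf9 and Klf10) and none rose, where 29.7% of all genes were called, 15.8% higher and 13.9% lower. All 9 genes are bright on this array, and among the 3885 genes at least as bright as the dimmest member the background was higher. Of those, 43.7% were called with the Net shRNA, 22.8% higher and 20.9% lower. With the Sap-1 shRNA 51.6% were called, 27.8% higher and 23.8% lower. Counted in either direction, the members' calls therefore lay near the share for equally bright genes. Every call of a member was a fall, but the members were chosen with earlier results of these data known. Of the 8 KLF genes left out, 1 rose (Klf12) and 2 fell in Net shRNA cells, and 3 fell in Sap-1 shRNA cells. With each array centred on its median, the calls of Klf3, Klf6, Klf7 and Klf10 in Sap-1 shRNA cells were lost (adjusted p = 0.058, 0.11, 0.078 and 0.098), which left Klf2 and Klf9. The median log2 difference of the 9 members was -0.15 with the Net shRNA and -0.16 with the Sap-1 shRNA, against -0.002 and -0.02 over all genes and 0.003 and 0.01 over the bright ones. Both comparisons share the 3 control arrays, and the members' mean deviation from each gene's average was 0.11 to 0.19 on these and -0.11 to -0.03 on the other 6.

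**Figure D1:**
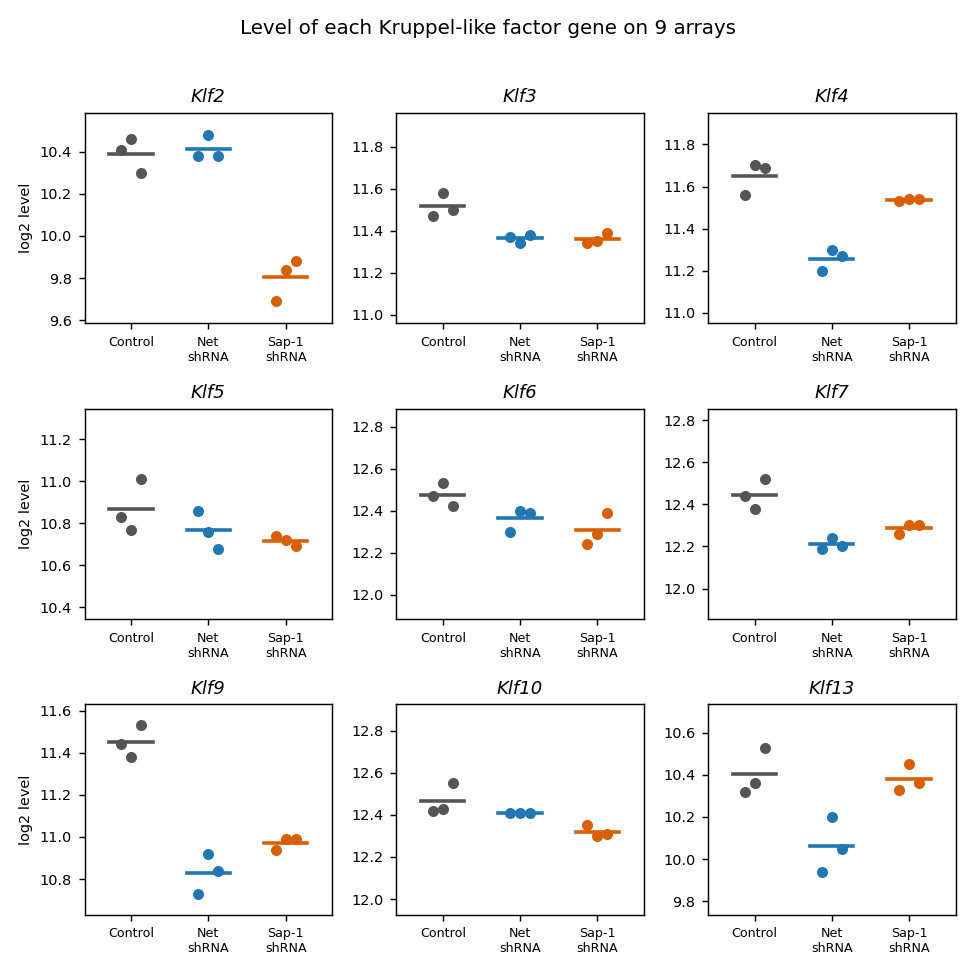
Log2 level of the 9 Krüppel-like factor genes (vertical axes, each spanning at least 1 log2 unit, not starting at 0) on the 9 arrays, 3 per group; points are arrays and bars are group means. Klf9 is lower on all 6 shRNA arrays, Klf2 on the 3 Sap-1 shRNA arrays, and Klf4 and Klf13 are lowest on the 3 Net shRNA arrays.

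Klf9, a gene induced by glucocorticoids and thyroid hormone whose protein binds Sin3A, had the largest fall of any member in Net shRNA cells and fell in both lines. Its log2 levels were 11.44, 11.38 and 11.53 in control, 10.73, 10.92 and 10.84 in Net shRNA cells and 10.94, 10.99 and 10.99 in Sap-1 shRNA cells. Every shRNA array lay below every control array, and both shRNA groups lay close together. In Net shRNA cells Klf9 fell by 0.62 (SE 0.06, limma adjusted p = 1.8e-05), to 65.0% of control, the 446th largest of 19935 differences in size. In Sap-1 shRNA cells it fell by 0.48 (SE 0.06, adjusted p = 7.1e-05), to 71.9% of control. The difference between both lines was -0.15 (95% interval -0.27 to -0.02) and did not pass (adjusted p = 0.085), although the arrays of the lines did not overlap. The order of levels was control, Sap-1 shRNA and Net shRNA cells, the last step short of the threshold. It passed with Net shRNA replicate 2 left out (-0.19, adjusted p = 0.034) and in a fit without the dimmer genes, those under the median level (adjusted p = 0.045).

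Klf2, which is known to keep endothelial cells and T cells in a resting state, fell in Sap-1 shRNA cells and was not called in Net shRNA cells. Its levels were 10.41, 10.46 and 10.30 in control and 10.38, 10.48 and 10.38 in Net shRNA cells, which overlapped. In Sap-1 shRNA cells they were 9.69, 9.84 and 9.88, below all 6 other arrays. The fall was 0.59 (SE 0.06, limma adjusted p = 2.4e-05), to 66.6% of control, the 890th largest difference of that comparison. In Net shRNA cells the difference was 0.02 (95% interval -0.11 to 0.16, adjusted p = 0.85). Compared directly, the Klf2 level of Net shRNA cells stood above that of Sap-1 shRNA cells by 0.61 (SE 0.06, adjusted p = 1.8e-05), the largest difference between the lines among the 9 members.

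Klf4 and Klf13 showed the opposite order, with Net shRNA cells lowest. Klf4, one of the factors used to reprogram cells to pluripotency and an inhibitor of the cell cycle in many tissues, lay at 11.56, 11.70 and 11.69 in control, 11.20, 11.30 and 11.27 in Net shRNA and 11.53, 11.54 and 11.54 in Sap-1 shRNA cells. The 3 groups did not overlap, although Sap-1 shRNA cells lay just under control. In Net shRNA cells Klf4 fell by 0.40 (SE 0.05, limma adjusted p = 0.00013), to 76.0% of control. The Sap-1 shRNA difference was -0.11 (95% interval -0.22 to -0.01, adjusted p = 0.11), which passed with control replicate 1 left out (-0.16, adjusted p = 0.024), after cyclic loess (-0.13, adjusted p = 0.03) and with array weights (-0.13, adjusted p = 0.022). Net minus Sap-1 shRNA was -0.28 for Klf4 (SE 0.05, adjusted p = 0.00086).

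Klf13, known as a late activator of the chemokine gene Ccl5 in T cells, lay at 10.32, 10.36 and 10.53 in control, 9.94, 10.20 and 10.05 in Net shRNA and 10.33, 10.45 and 10.36 in Sap-1 shRNA cells. The Net shRNA arrays were below the other 6, and control and Sap-1 shRNA arrays overlapped. Klf13 fell by 0.34 in Net shRNA cells (SE 0.07, limma adjusted p = 0.0064), to 79.2% of control. In Sap-1 shRNA cells it differed by -0.02 (95% interval -0.18 to 0.14, adjusted p = 0.88), and the direct difference of Net minus Sap-1 shRNA was -0.32 (SE 0.07, adjusted p = 0.0075).

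Klf3 and Klf7 were lower in both lines by small amounts. Klf3, the CtBP-binding repressor, lay at 11.47, 11.58 and 11.50 in control, at 11.37, 11.34 and 11.38 in Net shRNA and at 11.34, 11.35 and 11.39 in Sap-1 shRNA cells. The falls were 0.15 (SE 0.04, adjusted p = 0.019) and 0.16 (SE 0.04, adjusted p = 0.012), and the lines did not differ beyond their spread (0.01, 95% interval -0.08 to 0.10). With control replicate 2 left out, Klf3 passed in neither line (adjusted p = 0.08 and 0.052), nor in Net shRNA cells without Net shRNA replicate 2 (adjusted p = 0.06). Klf7, known for its part in axon growth of sensory neurons, lay at 12.44, 12.38 and 12.52 in control, 12.19, 12.24 and 12.20 in Net shRNA and 12.26, 12.30 and 12.30 in Sap-1 shRNA cells. It fell by 0.24 in Net shRNA cells (SE 0.04, adjusted p = 0.0025), to 84.9% of control. The fall in Sap-1 shRNA cells was 0.16 (SE 0.04, adjusted p = 0.021), a call lost without control replicate 3 (adjusted p = 0.079) or Sap-1 shRNA replicate 1 (adjusted p = 0.071).

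Klf6 and Klf10, quickly inducible genes of which Klf10 is the TGF-beta inducible early gene, were called with the Sap-1 shRNA and not with the Net shRNA, and neither passed the direct test between the lines. Klf6 lay at 12.47, 12.53 and 12.42 in control, 12.30, 12.40 and 12.39 in Net shRNA and 12.24, 12.29 and 12.39 in Sap-1 shRNA cells. It fell by 0.16 (SE 0.05, adjusted p = 0.031) in Sap-1 shRNA cells, where Net shRNA cells differed by -0.11 (95% interval -0.22 to 0.003, adjusted p = 0.16). Klf10 lay at 12.42, 12.43 and 12.55 in control, at 12.41 on all 3 Net shRNA arrays and at 12.35, 12.30 and 12.31 in Sap-1 shRNA cells. It fell by 0.14 (SE 0.04, adjusted p = 0.027) in Sap-1 shRNA cells, against -0.05 (95% interval -0.15 to 0.05, adjusted p = 0.50) in Net shRNA cells. Net minus Sap-1 shRNA was 0.05 for Klf6 and 0.09 for Klf10 (adjusted p = 0.51 and 0.15). The Klf6 call was lost without control replicate 1 or 2 or Sap-1 shRNA replicate 1 or 2 (adjusted p = 0.072, 0.11, 0.12 and 0.091), and the Klf10 call without control replicate 3 or Sap-1 shRNA replicate 2 or 3 (adjusted p = 0.097, 0.089 and 0.069).

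Klf5, which favours proliferation in epithelial and smooth muscle cells, passed in no comparison. Its levels were 10.83, 10.77 and 11.01 in control, 10.86, 10.76 and 10.68 in Net shRNA and 10.74, 10.72 and 10.69 in Sap-1 shRNA cells. The differences from control were -0.10 (95% interval -0.24 to 0.04, adjusted p = 0.34) and -0.15 (95% interval -0.30 to -0.01, adjusted p = 0.10), so a fall of the size of the Klf7 fall in Net shRNA cells lies within both intervals.

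**Figure D2:**
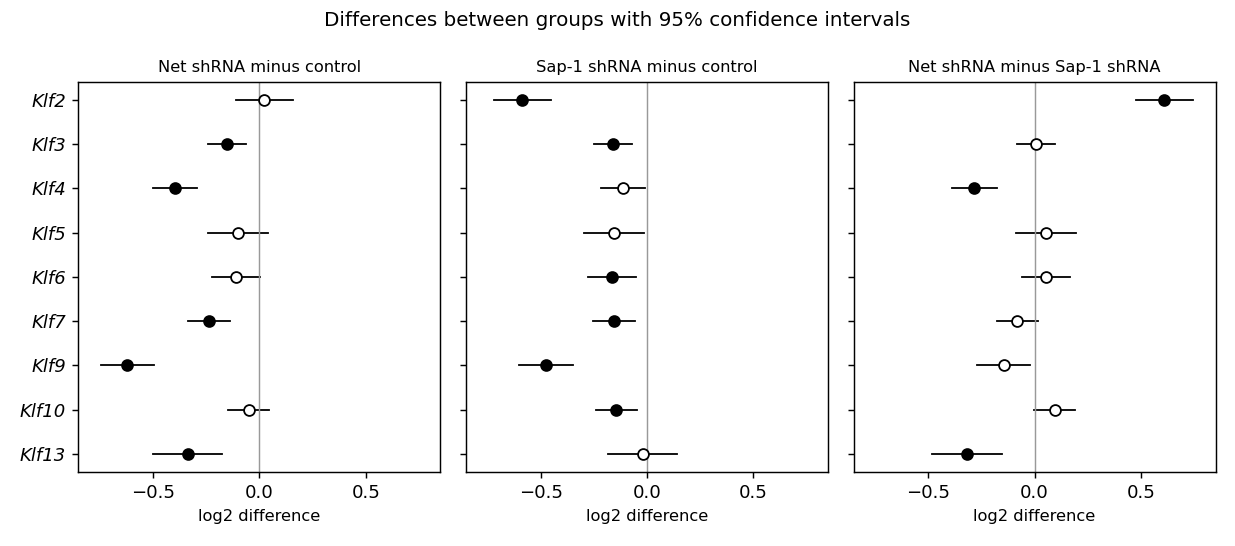
Log2 difference of each Krüppel-like factor gene (rows) in the 3 comparisons (panels), as points with 95% confidence intervals from limma over 3 arrays per group; filled points have an adjusted p under 0.05 over all genes. The filled points in both comparisons with control lie left of 0, and Klf2 stands right of 0 and Klf4 and Klf13 left of 0 between the knockdowns.

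Between the knockdowns 3 of 9 members were called, 1 higher in Net shRNA cells (Klf2) and 2 lower (Klf4 and Klf13), against 27.5% of all genes, 14.2% higher and 13.3% lower, and against 50.3% of the equally bright genes, 24.7% higher and 25.6% lower. The arrays of the groups did not overlap for 7 of 9 members between Net shRNA and control, where they did not for 34.3% of all genes. The counts were 8 of 9 against 41% between Sap-1 shRNA and control, and 6 of 9 against 37.4% between the knockdowns. This share was not computed for the equally bright genes, so these counts stand beside an unlike background. A gap can also be very small, as for Klf10 with the Net shRNA, at 12.41 against 12.42 on the lowest control array (limma adjusted p = 0.50).

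The genes around several members on their chromosomes were shifted too, and the small KLF differences moved when that shift was taken off. For each gene the median deviation of its 50 nearest expressed neighbours was subtracted on every array. The neighbours of Klf3 were lower with either shRNA (median differences -0.23 and -0.21), and its own difference turned to 0.073 and 0.052 (adjusted p = 0.23 and 0.36). The neighbours of Klf7 were at -0.17 in Net shRNA cells and 0.12 in Sap-1 shRNA cells. With them taken off, the Klf7 difference from control was -0.07 with the Net shRNA (adjusted p = 0.35) and -0.27 with the Sap-1 shRNA (adjusted p = 0.00099), and Net minus Sap-1 shRNA turned to 0.21 (adjusted p = 0.0063). The neighbours of Klf10 were at 0.21 in Sap-1 shRNA cells and its fall there became 0.35 (a difference of -0.35, adjusted p = 8.9e-05). Klf4 and Klf5 were then also called in Sap-1 shRNA cells (-0.20 and -0.26, adjusted p = 0.0027 and 0.013).

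The called falls of Klf9, Klf2, Klf4 and Klf13 changed less. Klf9 stood at -0.60 and -0.42 with the neighbours taken off, Klf2 at -0.65 in Sap-1 shRNA cells, Klf4 at -0.48 and Klf13 at -0.36 in Net shRNA cells, each still called. Klf2 moved further in Net shRNA cells, where its neighbours were at 0.20 and its difference went from 0.02 to -0.17, short of a call (adjusted p = 0.078), and Net minus Sap-1 shRNA stood at 0.47 (adjusted p = 0.00026). On this footing 3 of 9 members fell in Net shRNA cells, and 7 of 9 did with the Sap-1 shRNA. The background rose too, as 5334 and 6770 of all 19935 genes were then called, 2668 and 3479 of them lower. Of the 7 called between the lines, 4 were higher and 3 lower in Net shRNA cells. The 4 higher were Klf2, Klf6, Klf7 and Klf10, and the 3 lower were Klf4, Klf9 and Klf13. What moved the neighbouring genes was not tested.

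**Figure D3:**
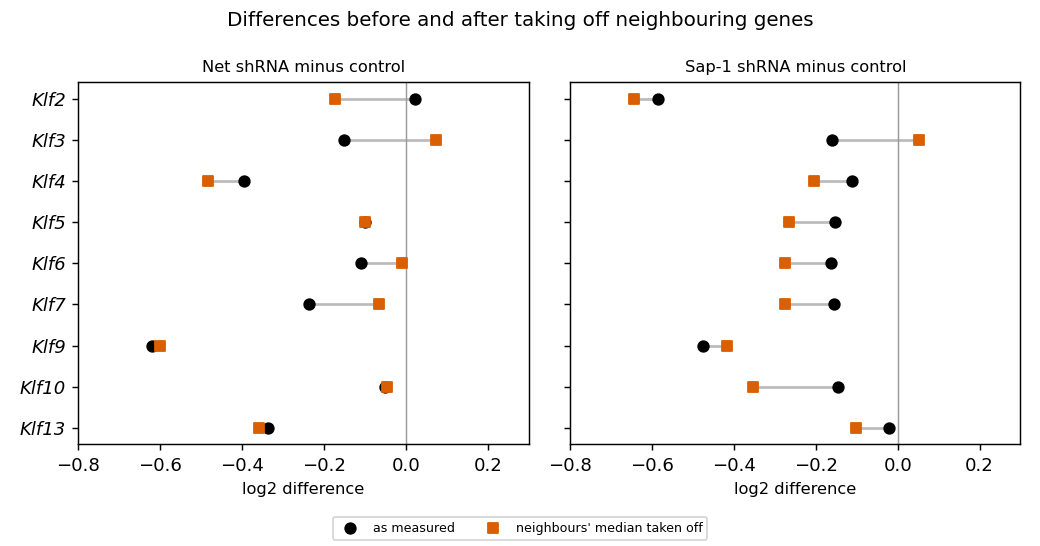
Log2 difference from control of each Krüppel-like factor gene (rows) in Net shRNA (left) and Sap-1 shRNA cells (right), as measured (black circles) and with the median of its 50 nearest expressed neighbours taken off (orange squares). Klf3 crosses 0 in both panels, while Klf9 stays at -0.60 and -0.42 and Klf2 at -0.65 in Sap-1 shRNA cells.

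The genes whose pattern over the 9 arrays came closest to that of a member were found for Klf2 and Klf9, the members whose group means spanned at least 0.5. The search passed over the other members and genes with predicted, clone, small RNA, olfactory receptor or vomeronasal receptor names. Closest to Klf2 were Foxo1, Birc3 and Dkk2, whose values centred per gene differed from it by a root mean square of 0.047, 0.048 and 0.056 log2 units over the 9 arrays (Pearson r = 0.987, 0.986 and 0.982). Foxo1 encodes a forkhead factor held back by growth factor signalling, Birc3 an inhibitor of cell death and Dkk2 a secreted modulator of Wnt signalling, and they stood at -0.54, -0.60 and -0.60 in Sap-1 shRNA cells. Closest to Klf9 were Ptgis, the prostacyclin synthase gene, Pcdhb16, a clustered protocadherin, and Abl2, a tyrosine kinase, at 0.054, 0.054 and 0.062 log2 units (r = 0.981, 0.993 and 0.982). With 3 groups on the same arrays such values describe shared group means and carry no test.

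Among the other 8 KLF genes on the array, Klf12 went opposite ways in the 2 lines. Klf12, a repressor that like Klf3 binds CtBP, lay at 8.81, 8.84 and 8.96 in control, 9.29, 9.46 and 9.45 in Net shRNA and 8.09, 7.98 and 8.14 in Sap-1 shRNA cells, with no overlap between groups. It rose by 0.53 in Net shRNA cells (SE 0.06, adjusted p = 0.00011) and fell by 0.80 in Sap-1 shRNA cells (SE 0.06, adjusted p = 2.6e-06), a difference of 1.33 between the lines (adjusted p = 3.7e-08) that exceeded that of any of the 9 members. Klf11 and Klf16, relatives of Klf9, Klf10 and Klf13 in the Sin3A-binding group, fell in both lines. Klf11 fell by 0.30 with the Net and by 0.24 with the Sap-1 shRNA (SE 0.05 each, adjusted p = 0.00087 and 0.0023), and Klf16 by 0.25 and 0.23 (SE 0.05 each, adjusted p = 0.0031 and 0.0042). Klf1, Klf8, Klf14, Klf15 and Klf17 passed in no comparison, and Klf1, Klf8 and Klf17 had control means of only 6.43, 5.67 and 5.33. In counts, 1 of the 8 rose and 2 fell in Net shRNA cells and 3 fell in Sap-1 shRNA cells, with medians of -0.04 and -0.10. The shares called over all genes were 23.6% and 29.7%.

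SP factor genes encode the nearest relatives of the KLF family. Of 8 measured, none was called in Net shRNA cells by limma (none at an unadjusted p under 0.05 either) and 1 in Sap-1 shRNA cells, against 23.6% and 29.7% of all genes. Sp4 to Sp9 were dim, with control means of 5.80 to 7.93. Sp3 fell by 0.31 in Sap-1 shRNA cells (SE 0.05, adjusted p = 0.00077), or by 0.17 as the mean of its probe sets (adjusted p = 0.0056), and Net minus Sap-1 shRNA was 0.21 for Sp3 (adjusted p = 0.011). The list medians were -0.03 and -0.06.

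Genes of KLF partner proteins went both ways. Of 11 cofactor genes, 4 rose and 3 fell in Net shRNA cells and 3 rose in Sap-1 shRNA cells, with medians of 0.03 and 0.01. Of all genes 23.6% and 29.7% were called, and of those at least as bright as the dimmest member 43.7% and 51.6%. Sap30, which encodes a subunit of the Sin3 corepressor complex, rose most, from 7.37, 7.71 and 7.49 in control to 8.83, 8.60 and 8.80 in Net shRNA and 8.57, 8.50 and 8.65 in Sap-1 shRNA cells. The rises were 1.22 and 1.05 (SE 0.09 each, adjusted p = 2.4e-06 and 3.9e-06). The acetyltransferase gene Crebbp fell by 0.30 in Net shRNA cells (adjusted p = 0.0017), and Ctbp2 rose by 0.36 in Sap-1 shRNA cells (adjusted p = 9e-05). Sin3b (0.20) and Ctbp1 (-0.24) were called in Net shRNA cells and Hdac1 (0.22) in Sap-1 shRNA cells. None of these 3 was called with the neighbours' median taken off (0.003, -0.14 and 0.10). The Net shRNA rise of Hdac1, 0.16, was lost in the same way (0.10). That of Hdac3, 0.20, was lost without Net shRNA replicate 3 (limma adjusted p = 0.053). With each array left out in turn, 3 to 5 rose and 3 fell with the Net shRNA. The counts with the Sap-1 shRNA were 3 and 0 to 1.

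Of 9 genes of ubiquitin ligases that act on KLF proteins, 1 rose and 1 fell in Net shRNA cells and 1 rose and 3 fell in Sap-1 shRNA cells. The medians were -0.06 and -0.05, and 23.6% and 29.7% of all genes were called. Wwp1, whose product marks Klf2 and Klf5 protein for degradation, rose in both lines, from 10.07, 10.02 and 10.10 to 10.52, 10.61 and 10.57 in Net shRNA and 10.65, 10.66 and 10.66 in Sap-1 shRNA cells. The rises were 0.50 and 0.59 (SE 0.04 each, adjusted p = 6.1e-06 and 9.2e-07). Itch, a related ligase, fell by 0.25 and 0.26 (adjusted p = 0.0079 and 0.0051), and in Sap-1 shRNA cells Btrc fell by 0.30 and Smurf1 by 0.18 (adjusted p = 0.00012 and 0.0068). KLF protein was not measured.

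Of 15 measured genes of signalling upstream of KLF transcription, 1 rose and 5 fell in Net shRNA cells and 3 rose and 6 fell in Sap-1 shRNA cells. The targeted genes Elk3 and Elk4 were among the falls in both lines. The shares called were 23.6% and 29.7% of all genes, and 43.7% and 51.6% of those at least as bright as the dimmest member. The fall of Elk3 in Sap-1 shRNA cells, 0.12, was lost with arrays centred on their medians (adjusted p = 0.12) and without control replicate 2 or 3 or Sap-1 shRNA replicate 1 (adjusted p = 0.071, 0.064 and 0.068). With each array left out in turn the counts were 0 to 1 higher and 4 to 6 lower with the Net shRNA, and 2 to 3 higher and 4 to 6 lower with the Sap-1 shRNA. The 1 rise in Net shRNA cells was Mef2c (0.18, adjusted p = 0.03), lost without any 1 control array or without Net shRNA replicate 2 or 3 (adjusted p = 0.057 to 0.11 in these fits) and with arrays centred on their medians. The Net shRNA call of Mrtfb was lost without any 1 control or Sap-1 shRNA array (adjusted p = 0.053 to 0.098). The Sap-1 shRNA rise of Nr3c1, the glucocorticoid receptor gene, 0.14, was lost without control replicate 1 or 2 or Sap-1 shRNA replicate 2 or 3 (adjusted p = 0.064, 0.087, 0.076 and 0.08). The medians were -0.06 and -0.08. Mef2c, a gene of the MEF2 factors through which the kinase ERK5 is known to raise Klf2 and Klf4, rose by 1.53 in Sap-1 shRNA cells (SE 0.05, adjusted p = 4.5e-09), from 8.41, 8.37 and 8.38 to 9.89, 9.87 and 10.00. Mef2a rose there by 0.28 (adjusted p = 0.00082), while Mapk7, the ERK5 gene itself, fell by 0.21 and Mef2d by 0.20 (adjusted p = 0.0026 and 0.015). The Mef2d call was lost without control replicate 3 or Sap-1 shRNA replicate 1 or 3 (adjusted p = 0.066, 0.06 and 0.059) and with the neighbours' median taken off (-0.10). Smad3, of the TGF-beta pathway that induces Klf10, fell by 0.44 with the Net and by 0.41 with the Sap-1 shRNA (adjusted p = 0.00053 and 0.0005), and the SRF coactivator gene Mrtfa fell by 0.22 in Net shRNA cells (adjusted p = 0.0028).

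**Figure D4:**
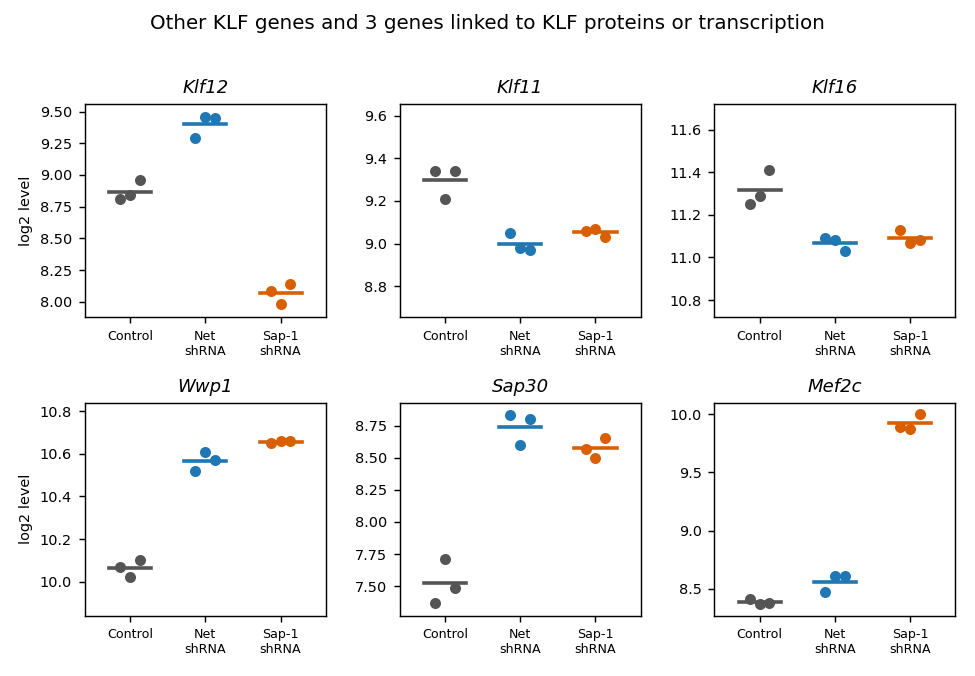
Log2 level (vertical axes, each with its own range, not starting at 0) of the 3 other Krüppel-like factor genes that were called and of Wwp1, Sap30 and Mef2c on the 9 arrays; points are arrays and bars are group means of 3. Klf12 lies above control on Net shRNA arrays and below it on Sap-1 shRNA arrays, and Wwp1 and Sap30 lie above control on all 6 shRNA arrays.

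Genes described as KLF targets went both ways. Of 15 measured, 5 rose and 1 fell in Net shRNA cells and 5 rose and 3 fell in Sap-1 shRNA cells. The medians were 0.03 in both, and 23.6% and 29.7% of all genes were called. The list was not sorted by whether a KLF protein is described to raise or lower each gene. Its counts and medians therefore do not show whether targets followed the KLF genes. With each array left out in turn, 5 to 6 rose and 1 to 2 fell with the Net shRNA. The counts with the Sap-1 shRNA were 4 to 5 and 2 to 4. There the calls of Plau (0.14) and Col1a1 (-0.13) were lost in 6 and 5 of 9 such fits (limma adjusted p up to 0.16 and 0.13). S1pr1, a sphingosine phosphate receptor gene that Klf2 is known to raise in T cells, rose by 0.82 in Net shRNA cells and fell by 0.79 in Sap-1 shRNA cells (SE 0.04 each, adjusted p = 1.5e-07 and 1e-07). Thbd, the thrombomodulin gene and another known target of Klf2, rose by 0.47 and 1.17 (SE 0.06 each, adjusted p = 0.00021 and 1.1e-07). Ccl5, the known target of Klf13, rose by 1.27 in Net shRNA cells (SE 0.06, adjusted p = 1.3e-07). It stood at -0.13 in Sap-1 shRNA cells (adjusted p = 0.14). Whether the Klf2 and Klf13 differences bear on these target genes was not tested. Plau rose by 0.34 in Net shRNA cells, while in Sap-1 shRNA cells Ccnd1, the cyclin D1 gene, rose by 0.78 and Tgfbr1 fell by 0.50 (adjusted p = 0.00031, 9.8e-08 and 4.8e-05).

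Other genes induced by glucocorticoids went both ways in each line. Of 7 measured, 2 rose and 1 fell in Net shRNA cells and 1 rose and 3 fell in Sap-1 shRNA cells. The medians were -0.05 and -0.12, and 23.6% and 29.7% of all genes were called. Cebpd rose by 0.66 in Net shRNA cells and fell by 0.26 in Sap-1 shRNA cells (SE 0.07 each, adjusted p = 4.7e-05 and 0.013), and Dusp1 rose by 0.32 and 0.55 (adjusted p = 0.00027 and 3.2e-06). Tsc22d3, the glucocorticoid-induced leucine zipper gene, fell by 0.17 in Net shRNA cells (adjusted p = 0.016), and Per1 and Sgk1 fell by 0.46 and 0.17 with the Sap-1 shRNA (adjusted p = 7e-06 and 0.01). The Sap-1 shRNA call of Cebpd was lost without control replicate 1 or 2 or Sap-1 shRNA replicate 1 (adjusted p = 0.05, 0.051 and 0.057), and the Net shRNA call of Tsc22d3 without control replicate 3 or Net shRNA replicate 2 (adjusted p = 0.061 and 0.052).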

How the data were processed

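The authors deposited 1 log2 level per probe set and array for 28815 probe sets, made by RMA (Affymetrix Expression Console, as the submitters' processing notes say); version and settings are not given in the sources used here. RMA subtracts background and brings arrays to a common distribution, which compresses small folds of dim genes and removes a change shared by most genes. There is no read depth, and precision is limited by the number of arrays. Probe sets with a single symbol (21780) were named through the platform annotation, updated by Entrez ID in RefSeq GRCm38.p6 (21689 matched), and the brightest per gene was kept (19935 genes). The array's design build was not given in the sources used here. Groups were compared by lmFit and eBayes of limma 3.58.1 under R 4.3.3 (all 9 arrays, a mean per group, 6 residual and 4.7 prior degrees of freedom) and Benjamini-Hochberg adjustment over all genes. The script was tested on simulated data. Intervals are limma's 95% intervals. All 9 members were named, list genes by smallest adjusted p (up to 4 called per list and comparison), and like genes by root mean square difference. Alternatives were a replicate block, a trend with robust variances, 6 arrays only, 3 normalizations, a filter on dim genes, the mean of probe sets, array weights, the neighbours' median taken off, an adjusted p under 0.01 and each array left out. The members and lists were chosen with earlier results of these data known. The share called among equally bright genes was added after the values had been seen.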

Additional observations from a re-analysis of the deposited data

Results flagged for a closer look

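Of the 17 KLF genes, 4 differed between Net and Sap-1 shRNA cells in the direct test with limma. Klf12 was higher in Net shRNA cells by 1.33 (95% interval 1.19 to 1.47), with its 3 arrays above control in Net shRNA and below control in Sap-1 shRNA cells. Klf2 was higher by 0.61 (95% interval 0.48 to 0.74). Klf4 differed by -0.28 (95% interval -0.39 to -0.18) and Klf13 by -0.32 (95% interval -0.48 to -0.15), both lower in Net shRNA cells. Klf12, Klf2, Klf4 and Klf13 each kept their sign and their call with the neighbours' median taken off (1.42, 0.47, -0.28 and -0.26).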

How the results depend on the processing

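The number of the 9 members called was 4 to 5 in Net shRNA cells, 4 to 6 in Sap-1 shRNA cells and 3 to 4 between the lines with each array left out in turn. With the neighbours' median taken off the number of members was 3 in Net shRNA cells and 7 between the lines. Of all genes 5334 were then called in Net shRNA cells. Between the lines the count over all genes was 3993 to 6294 over the 20 alternatives. In Sap-1 shRNA cells 2 members were called with each array centred on its median and 2 at an adjusted p under 0.01, namely Klf2 and Klf9. Of all genes 5614 and 4261 were called under these settings. Of 540 values of single members under the alternatives, 24 lost a call and 11 gained one, and 3 of these also turned sign, with the neighbours' median taken off (Klf3, its calls lost, at 0.073 and 0.052 against control, and Klf7, its call gained, at 0.21 between the lines). The falls of Klf9 in both lines, Klf2 in Sap-1 shRNA cells and Klf4 and Klf13 in Net shRNA cells were called under all 20 alternatives. Deviations of arrays with the same replicate number in different groups correlated at -0.11 to 0.36, and those with different numbers at -0.43 to 0.30. The own number was best for 4 of 9 arrays. These overlapping ranges do not settle whether the number pairs the arrays, and the labels do not say so. With the number as a block the counts of members stayed at 5, 6 and 3. All genes called went from 4714, 5921 and 5480 to 4985, 6263 and 5752. Small differences of the size seen for Klf3, Klf6 and Klf10 are at the limit of 3 arrays a group.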
